A study of Danio rerio with 4 samples.

Results

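The genes of fatty acid oxidation were followed in hearts of larval zebrafish with and without ablation of the ventricle. The set was taken by the start of the gene symbol (acad, cpt1, cpt2, hadh, echs, eci with a number, acaa, acsl, acox, etfa, etfb, etfdh) together with slc25a20. It held 39 Ensembl gene entries, of which 38 were listed in at least 1 library, out of 20269 genes listed in all. Of these 38, 32 reached a mean of 1 FPKM over the libraries and were compared, as were 13574 genes of the whole series.

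All 4 groups were hearts of larvae carrying the transgene Tg(vmhc:mCherry-NTR), at 5 days post fertilization (dpf), with 1 library each. The transgene puts nitroreductase under the promoter of vmhc, a gene of ventricular cardiomyocytes, and the enzyme turns metronidazole (MTZ) into a toxin within the cells that make it. Injured hearts came from larvae kept in 5 mM MTZ for 4 hours from 72 hours post fertilization, and were collected at 2 days post treatment. From 76 to 124 hours the larvae received 2 µM SIS3, which inhibits the phosphorylation of Smad3, or 0.2% DMSO, the solvent control. When 4 values are given for a gene, the uninjured hearts come first (DMSO, then SIS3) and the injured hearts follow (DMSO, then SIS3). The sources used here do not say whether uninjured larvae also met MTZ, or how many hearts made up a library. With 1 library per group there was no test and no p-value, and no difference below has a replicate check.

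Fatty acid oxidation supplies much of the energy of the mature heart. A fatty acid is first joined to coenzyme A by an acyl-CoA synthetase (acsl genes), passed into the mitochondrion on carnitine (cpt1, slc25a20, cpt2), and then shortened by rounds of dehydrogenation, hydration, a second dehydrogenation and thiolysis. Acyl-CoA dehydrogenases are graded by chain length and hand their electrons to the electron transfer flavoprotein, and peroxisomes run a related pathway on very long and branched chains.

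Levels are FPKM, the fragments per kilobase of transcript, normalised to all fragments of the library, divided by a scale factor for each library. A change is the difference between libraries in log2(scaled FPKM + 1), on which low genes move less than their ratio. A change of at least 2-fold, 1 on that scale, was called. The libraries listed between 15691 and 18207 genes and 34, 34, 34 and 35 of the members. Read depth could not be recovered from the values. A member listed at 0 may be one whose estimate failed, and no fold is given against such a value. Cardiomyocyte markers, 12 of 15 matched, were abundant, among them the myosin light chain gene myl7 at 4993, 4083, 2815 and 2566 FPKM. Of those markers, 11, 11, 12 and 11 were listed, with myh6 at 0 in both uninjured libraries and cmlc1 at 0 in injured SIS3.

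The summed level of the 31 members that were compared and listed in all 4 libraries was 1306, 1253, 955 and 1028 FPKM. The 2 injured libraries were thus both below the 2 uninjured ones, and their median member stood at 25.3 and 27.6 FPKM against 35.0 and 37.9 FPKM. After injury in DMSO, 3 of these 31 members were at least 2-fold lower (acadm, cpt1b and acsl1b), beside 8.88% of all genes compared and 6.70% of those listed in all 4 libraries. Only acsl4b was at least 2-fold higher, beside 6.46% and 6.01%. The remaining compared member, hadhb, was listed in injured DMSO alone, so that it passed the filter through the 1 library where it was high, and it is not read as a call in any comparison. Smaller shifts were more one-sided. Of the 31, 24 were below 0, beside 50.4% of genes listed in all 4 libraries. The median change was −0.22 against −0.01 for those genes. Over the 32 compared, hadhb included, it was −0.21 against −0.02 for all genes. With the deposited values unscaled the median of the 32 was −0.03 and that of all genes 0.17. The members thus lay below the other genes by about as much.

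**Figure D1:**
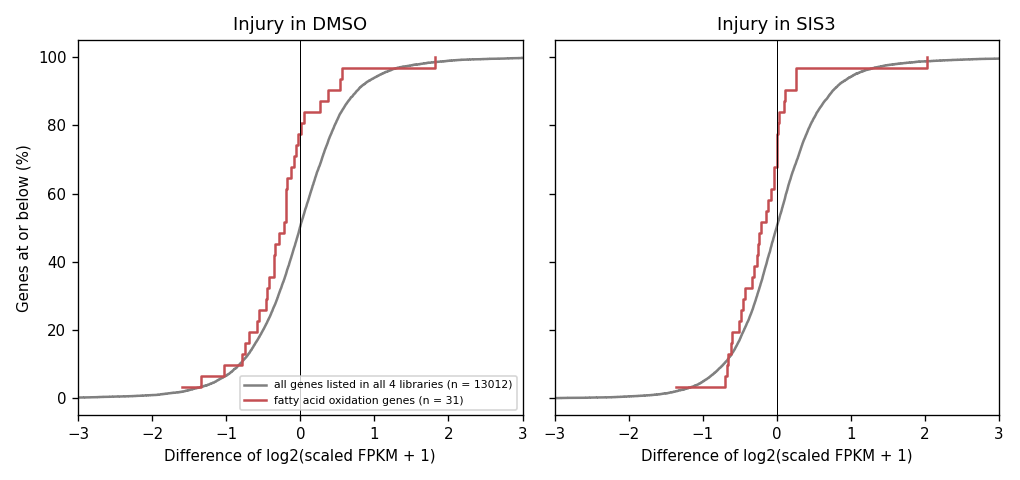
Cumulative share of genes (vertical axis, percent) at or below each change after injury (horizontal axis, difference of log2(scaled FPKM + 1)), in DMSO at left and in SIS3 at right, for the 31 fatty acid oxidation genes and the 13012 genes compared and listed in all 4 libraries. The curve of the fatty acid oxidation genes lies to the left of the grey curve around its middle, with medians of −0.22 in both panels.

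The transgene targets cardiomyocytes of the ventricle, and vmhc itself was not among the matched cardiomyocyte markers. Most of the matched ones were lower after injury in DMSO. Of the 12 compared, 6 were at least 2-fold lower after injury in DMSO, beside 8.88% of all genes, with a median of −1.02. The 2 higher, beside 6.46%, were nppa and myh6, and the count of myh6 rests on a listed 0 in uninjured DMSO. For injury in SIS3 the markers were more mixed. There 5 of 12 were at least 2-fold lower, beside 6.75%, and 3 higher, beside 6.37%. Above 0 were 5 of 12, with a median of −0.41, and the changes of myh6 and cmlc1 each rest on a listed 0. The summed level of the 12 was 12557, 10268, 8898 and 9141 FPKM. Of this, nppa gave 1066, 1089, 3451 and 3535 FPKM, so that the sum of the other markers fell further after injury than the total. In RNA of whole hearts, fewer cells of a type and less RNA per cell cannot be told apart. Markers of other tissues also differed between the libraries. The 7 matched skeletal muscle markers of 14 summed to 1937, 1577, 899.9 and 1025 FPKM, with all 7 listed throughout. Most of this was acta1b (955, 842, 504 and 459 FPKM) and ckma (790, 611, 262 and 333 FPKM). Highest in injured SIS3 were pvalb2 (90.6, 41.8, 49.6 and 125 FPKM), tnnt3b (24.6, 11.2, 12.9 and 27.9 FPKM) and acta1a. Tnnt3a and atp2a1 were highest in an uninjured library. For liver, 19 of 20 were matched and summed to 1155, 642, 581 and 4221 FPKM, with 18, 19, 16 and 18 of them listed. Exocrine pancreas and intestine markers (12 of 16 matched) summed to 1738, 2136, 235 and 578 FPKM, with 11, 12, 8 and 10 listed. The 9 matched neural and eye markers of 12 summed to 166, 97.96, 0 and 5.60 FPKM, and all 9 were at 0 in injured DMSO. Of 6 fat markers 3 were matched, and nearly all of their 545, 446, 612 and 576 FPKM was fabp4a. Kidney tubule markers summed to 21.7, 24.9, 9.49 and 9.20 FPKM over 5 of 6 symbols, of which 4 were at 0 in injured DMSO. The part of these tissues in the levels below was not tested.

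**Figure D2:**
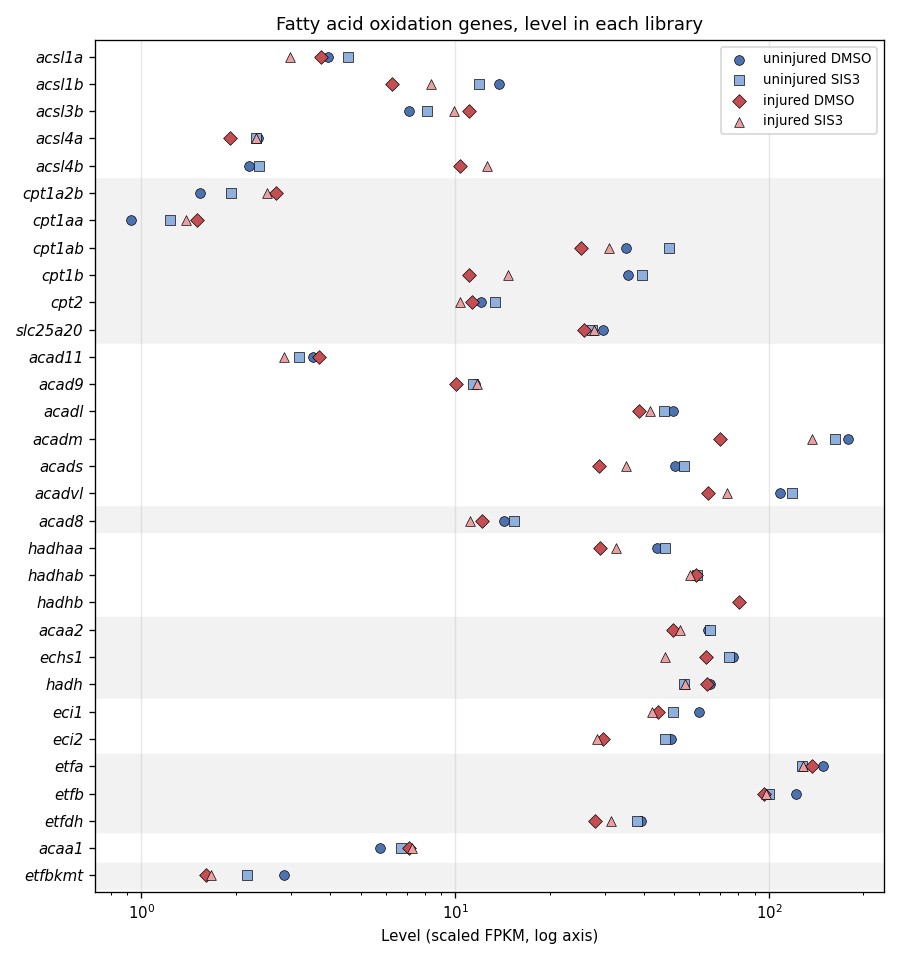
Level of 31 of the 32 compared fatty acid oxidation genes (rows, grouped by role with alternate shading) in scaled FPKM on a log axis, with 1 symbol per library. For cpt1b and acads both injured libraries lie left of both uninjured ones, acsl4b shows the opposite order, and hadhb has a symbol for injured DMSO only because it was listed at 0 in the others.

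Among the activating enzymes the paralogs moved apart. Acsl1b (ENSDARG00000003854, GRCz10 chromosome 14, 918930 to 952589, minus strand), an orthologue of the main acyl-CoA synthetase of mammalian heart, was at 13.8, 11.9, 6.30 and 8.40 FPKM. Its change after injury was −1.02 in DMSO and −0.46 in SIS3. The first of these lay just past the 2-fold line and was −0.82 unscaled and −0.74 with a pseudocount of 5 FPKM. The second copy, acsl1a, was at 3.92, 4.56, 3.73 and 2.98 FPKM, within 2-fold of each other.

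Acsl4b encodes a synthetase of the type that in mammals prefers arachidonic acid and other polyunsaturated chains. The gene (ENSDARG00000010752, chromosome 5, 23014599 to 23070434, minus strand) was at 2.21, 2.36, 10.3 and 12.7 FPKM. Both injured libraries were above both uninjured ones, and the change was 1.82 in DMSO and 2.02 in SIS3. With a pseudocount of 5 FPKM the change in DMSO was 1.09. The 6 matched macrophage markers of 10 were all at least 2-fold higher after injury in DMSO, beside 6.46% of all genes. They summed to 10.8, 12.3, 74.2 and 47.1 FPKM and were all listed in every library. Their part in the acsl4b level was not tested. Its paralog acsl4a stayed between 1.92 and 2.35 FPKM. Acsl3b, of the type tied to lipid droplets and the endoplasmic reticulum in mammals, was at 7.12, 8.12, 11.03 and 9.95 FPKM. Acsl2 (0.897 and 1.06 FPKM uninjured, 0 in both injured libraries), acsl3a (at most 0.601 FPKM) and acsl5 (0.521 FPKM in uninjured SIS3 only) did not reach the filter.

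The sum over all acsl genes was 30.4, 30.9, 33.9 and 36.8 FPKM, so that the total differed less than its composition. Acsl1b made up 45.5%, 38.6%, 18.6% and 22.8% of it, and acsl4b 7.26%, 7.65%, 30.5% and 34.4%. Acsl3b gave 23.4%, 26.3%, 32.5% and 27.0%.

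Carnitine palmitoyltransferase 1 sits on the outer mitochondrial membrane and is the regulated step of fatty acid entry. The muscle-type gene cpt1b (ENSDARG00000058285, chromosome 18, 8388901 to 8409547, plus strand) was at 35.4, 39.4, 11.03 and 14.7 FPKM. It had the most negative injury change of the 31 members listed in every library, at −1.60 in DMSO and −1.36 in SIS3. Under the 9 alternative settings the change in DMSO ran from −1.67 to −1.33, though those that change only the filter cannot move it.

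Of the genes named after the liver type, cpt1ab was the abundant one, at 35.0, 48.0, 25.3 and 31.0 FPKM. Its injury changes were −0.45 and −0.62, neither past 2-fold. Cpt1aa was at 0.928, 1.24, 1.51 and 1.39 FPKM, and cpt1a2b at 1.54, 1.93, 2.69 and 2.52 FPKM. These 2 low genes were highest in injured DMSO. For cpt1aa this rests on its last exon, since its first exon was at 0.104, 0.298, 0.803 and 1.00 FPKM, highest in injured SIS3. The sum of the 4 cpt1 genes was 72.9, 90.6, 40.5 and 49.6 FPKM. The share of cpt1b was 48.6% and 43.5% in the uninjured libraries and 27.2% and 29.7% in the injured ones, and that of cpt1ab 48.0%, 53.0%, 62.4% and 62.4%.

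The later steps of the shuttle differed little between libraries. Slc25a20, the exchanger of carnitine and acylcarnitine in the inner membrane, was at 29.6, 27.4, 25.8 and 27.6 FPKM. Cpt2, which returns the acyl group to coenzyme A in the matrix, was at 12.1, 13.4, 11.3 and 10.4 FPKM. Its values rest on its last exon, since its first exon was at 2.66, 1.60 and 1.31 FPKM in the last 3 libraries and was not listed in uninjured DMSO.

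**Figure D3:**
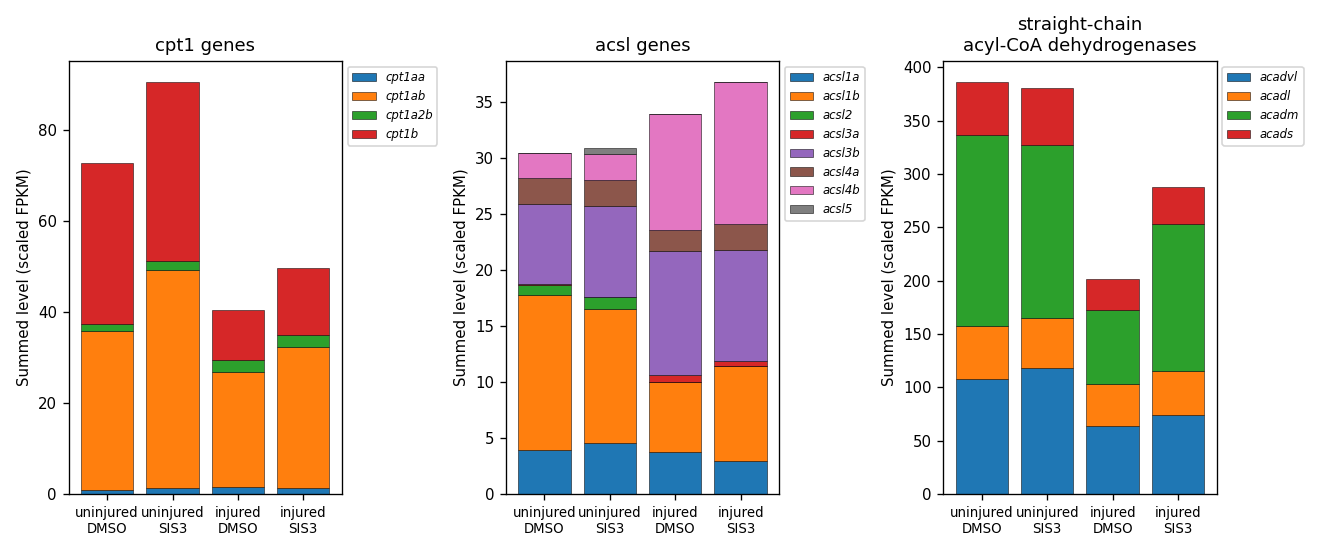
Stacked bars of the summed level (scaled FPKM) of the cpt1 genes, the acsl genes and the 4 straight-chain acyl-CoA dehydrogenases in each library, 1 bar per library and 1 colour per gene. The cpt1b part shrinks from 35.4 to 11.03 FPKM after injury in DMSO, acsl4b grows within a nearly level acsl total, and after injury the acadm part is 69.6 FPKM with DMSO and 138 FPKM with SIS3.

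Straight-chain acyl-CoA dehydrogenases carry out the first step of each round. Medium-chain acyl-CoA dehydrogenase, acadm (ENSDARG00000038900, chromosome 2, 26814436 to 26820516, minus strand), was the most abundant member in the uninjured libraries. It was at 179, 162, 69.6 and 138 FPKM, which made it the gene of rank 327, 313, 758 and 395 among 13574. Injured DMSO was thus the low library, and injured SIS3 lay nearer to the uninjured ones. The injury change was −1.35 in DMSO and −0.24 in SIS3.

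The difference of those 2 changes was 1.11, and 570 genes had a larger one. Acadm was the 1 of 31 members listed in all libraries past 2-fold in that direction, beside 4.91% of all genes. Unscaled the difference was 0.96, under the 2-fold line. Over 9 alternative settings it ran from 0.96 to 1.12, though those that change only the filter cannot move it. Summed over the gene, first and last exons gave nearly the same level in injured DMSO, 69.6 and 67.3 FPKM, and in injured SIS3, 138 and 135 FPKM. Events of a gene often carry the same deposited value, so this closeness is not an independent check. In the injured pair SIS3 was higher by 0.97, just short of 2-fold. Some marker lists moved in the same direction. Their median differences of injury changes were 4.09 for liver (17 of 17 above 0) and 0.69 for cardiomyocytes (10 of 12 above 0). They were 0.79 for skeletal muscle (7 of 7 above 0) and 1.58 for exocrine pancreas and intestine (8 of 11 above 0). The macrophage list went the other way, at −0.92 with all 6 below 0. With SIS3 without injury acadm changed by −0.14. The medians there were −0.73 for liver, −0.36 for cardiomyocytes, −0.18 for skeletal muscle, 0.23 for exocrine pancreas and intestine and −0.01 for macrophages. Of the cardiomyocyte markers 4 of 12 were at least 2-fold lower in that comparison, beside 1.47% of all genes, so part of their difference lies in uninjured SIS3. The part of any of these lists in the acadm value was not tested.

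For the other chain lengths injured DMSO was also the lowest library. The difference of their injury changes was smaller, at 0.07 for acadvl, 0.18 for acads and 0.20 for acadl. Acadvl, for very long chains, was at 108, 118, 64.1 and 73.7 FPKM, with injury changes of −0.75 and −0.67. Acads, for short chains, was at 50.1, 53.5, 28.8 and 35.0 FPKM, with −0.78 and −0.60. For both genes the injured libraries were below the uninjured ones in DMSO and SIS3 alike, by less than 2-fold. Acadl, the long-chain enzyme, varied less, at 49.5, 46.4, 38.7 and 41.7 FPKM. The share of acadm in the sum of these 4 genes was 46.2%, 42.7%, 34.6% and 47.8%, and the sum was 386, 380, 201 and 288 FPKM.

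Related dehydrogenases with other tasks stayed within 2-fold. Acad9, which in mammals also helps to assemble respiratory complex I, was at 11.6, 11.4, 10.1 and 11.7 FPKM. Acad11 lay between 2.84 and 3.68 FPKM. Acad8, which acts in valine breakdown, was at 14.3, 15.3, 12.2 and 11.1 FPKM. Acadsb, for short branched chains, has 2 gene entries, of which 1 was listed in injured SIS3 only, at 0.485 FPKM, and the other in no library.

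**Figure D4:**
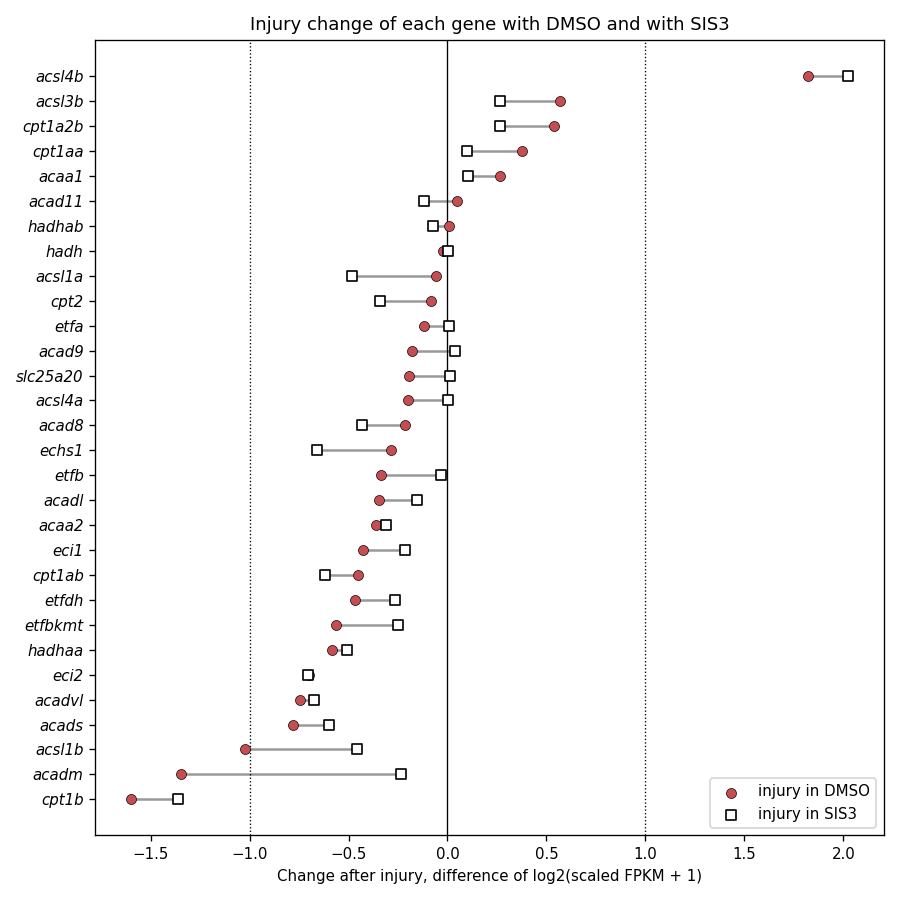
Change after injury of 30 of the 31 members listed in all libraries (rows, ordered by the change in DMSO), as difference of log2(scaled FPKM + 1), with filled circles for DMSO, open squares for SIS3 and dotted lines at 2-fold. The longest connecting line is that of acadm, from −1.35 to −0.24, while cpt1b and acsl4b lie past the same dotted line with both compounds.

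The mitochondrial trifunctional protein takes long chains through the last 3 steps and is built of alpha subunits (hadha genes) and beta subunits (hadhb). The alpha genes differed from each other. Hadhaa (ENSDARG00000057128, chromosome 20, 48484539 to 48555271, plus strand) was at 44.0, 46.7, 29.0 and 32.5 FPKM, with injury changes of −0.59 and −0.51. Hadhab was level, at 58.4, 59.0, 58.8 and 56.0 FPKM, and its share of the pair went from 57.0% and 55.8% to 67.0% and 63.3%.

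Hadhb was listed at 80.3 FPKM in injured DMSO, from a first exon at 48484502 to 48484537 on the minus strand, and at 0 in the other libraries. No last exon of hadhb was listed. Whether those zeros are missing entries or low levels was not tested, so no change of hadhb is read. The first exon of hadhb and the upstream first exon of hadhaa begin beside each other on opposite strands.

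First exons split the hadhaa change. The upstream first exon, at 48484539 to 48484645, was at 10.6, 7.28 and 0.437 FPKM in the first 3 libraries and was not listed in injured SIS3. The downstream one, at 48521810 to 48521912, was at 33.4, 39.4, 28.5 and 32.5 FPKM. The upstream exon thus gave 24.2% and 15.6% of the uninjured first-exon level and 1.51% of that in injured DMSO, and the downstream exon had injury changes of only −0.22 and −0.27.

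Acsl1b also had unequal first exons. The downstream one, at 943829 to 943907 on chromosome 14, was at 6.86, 5.32, 1.66 and 3.21 FPKM, and the upstream one, at 952487 to 952589, at 6.98, 6.61, 4.64 and 5.20 FPKM. Their injury changes in DMSO were −1.56 and −0.50. In acadvl, whose first exons overlap, both were lower after injury in DMSO, with changes of −0.83 for the longer and −0.51 for the shorter. With SIS3 the injury changes were −0.90 and −0.04. A second first-exon entry listed under hadh, at 0.516 and 0.449 FPKM in the SIS3 libraries only, lay on the plus strand (49263844 to 49264091). Hadh is on the minus strand, so this entry is not read as an alternative first exon of the gene.

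**Figure D5:**
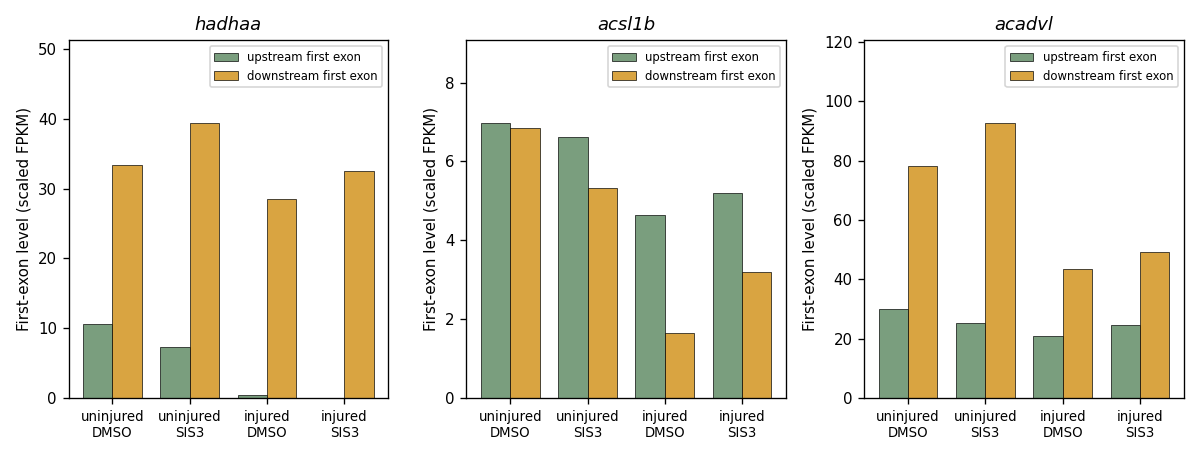
Level of each first exon (scaled FPKM, axis from 0) of hadhaa, acsl1b and acadvl in the 4 libraries, with 1 bar per exon and library. The upstream exon of hadhaa stands at 10.6 and 7.28 FPKM in the uninjured libraries, 0.437 FPKM in injured DMSO and has no bar in injured SIS3, and the downstream exon of acsl1b is lowest in injured DMSO at 1.66 FPKM.

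The soluble matrix enzymes finish the shorter chains. Echs1, the short-chain enoyl-CoA hydratase, was at 77.1, 74.4, 63.0 and 46.6 FPKM and was lowest in injured SIS3. Its change with SIS3 after injury, −0.43, was the most negative of the 31 members in that comparison. Over 9 alternative settings it ran from −0.48 to −0.28. In injured DMSO the first exon of echs1 was at 57.1 FPKM and its last at 63.0 FPKM. Hadh, the 3-hydroxyacyl-CoA dehydrogenase, was at 64.7, 53.8, 63.6 and 53.9 FPKM, lower in both SIS3 libraries than in both DMSO libraries and alike with and without injury. Acaa2, the mitochondrial thiolase, was at 63.9, 64.7, 49.6 and 52.0 FPKM.

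Enoyl-CoA isomerases prepare unsaturated chains for the same steps. Eci2 was at 48.8, 46.8, 29.7 and 28.4 FPKM, with an injury change of −0.70 in both compounds. These values rest on its first exon, since no last exon was listed in any library. Eci1 was at 60.0, 49.6, 44.3 and 42.5 FPKM.

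Electrons pass from the dehydrogenases to the electron transfer flavoprotein, of subunits etfa and etfb, and on to the quinone pool through etfdh. Etfa was at 149, 127, 137 and 128 FPKM and etfb at 122, 99.96, 96.4 and 97.7 FPKM. Etfdh was at 39.1, 37.9, 28.0 and 31.4 FPKM. None of these was past 2-fold in any comparison, and both injured values of etfa lay between its uninjured ones. The level of etfa counts an extra last exon at 52.2, 52.6, 52.3 and 43.5 FPKM that no listed first exon accounts for, and its first exon alone was at 96.7, 74.8, 84.7 and 84.5 FPKM. Etfbkmt, a methyltransferase that acts on etfb and entered the set by its symbol, was at 2.86, 2.17, 1.61 and 1.67 FPKM.

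Peroxisomal members were few. Acaa1, the peroxisomal thiolase, was at 5.77, 6.70, 7.13 and 7.28 FPKM. Acoxl (0.182 to 1.11 FPKM) and acox3 (2.29 FPKM, injured SIS3 only) were below the filter.

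With SIS3 few genes were past 2-fold, in the set as among all genes. Without injury none of the 31 members listed in all libraries was past 2-fold in either direction, beside 1.77% of all genes higher and 1.47% lower. Their median was 0.01, with 15 of 31 below 0, beside 51.4% of genes listed in all 4 libraries. The largest change was that of cpt1ab, at 0.45. After injury none of the 31 members listed in all libraries was past 2-fold, beside 3.2% of all genes higher and 1.13% lower. Among genes listed in all 4 libraries the shares were 2.11% and 0.81%. The median of the 31 members was 0.03, with 13 below 0, beside 51.0% of genes listed in all 4 libraries. Acadm at 0.97 was followed by cpt1b at 0.39.

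Injury with SIS3 present left 1 member at least 2-fold higher (acsl4b, beside 6.37% of all genes) and 1 at least 2-fold lower (cpt1b, beside 6.75%). The median of the 31 members listed in all libraries was −0.22, with 21 below 0, beside 50.3% of genes listed in all 4 libraries. This comparison shares no library with that of injury in DMSO. Across the 31 members listed in all libraries, which share the scaling and the 4 libraries, the 2 injury changes had a Pearson r of 0.87 and a Spearman rho of 0.78, and 24 had the same sign. Over the 13012 genes of the same kind r was 0.67 and rho 0.65, and 74.3% had the same sign, against 77.4% of the members. In the difference of the injury changes, acadm was the 1 member of 31 past 2-fold higher. The shares higher were 4.91% of all genes and 3.67% of those listed in all 4 libraries. None of the 31 was lower, beside 3.13% and 2.27%. The median difference over the 31 was 0.08, with 12 below 0, beside 49.6% of genes listed in all 4 libraries. Over the 32 compared, hadhb included, it was 0.07. Unscaled the median of the 32 was −0.07, and that of all genes −0.11, so that the members still lay slightly above the other genes.

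Other genes of the pathway were taken from lists chosen for the tissue, and nothing in their counts is read as particular to a list. Fatty acid uptake and storage had 9 of 14 genes compared. After injury in DMSO 3 were past 2-fold lower, beside 8.88% of all genes, and none higher, beside 6.46% (median −0.13). Fabp3, which carries fatty acids within cardiomyocytes, was at 639, 468, 282 and 249.8 FPKM. The remaining lower genes were below 2 FPKM, cd36 (1.45, 1.95, 0 and 0.867 FPKM), whose count rests on a listed 0, and slc27a2a (1.93, 1.052, 0.0400 and 1.95 FPKM). With SIS3 after injury 2 were higher, beside 3.2% of all genes, slc27a2a by 1.502 and slc27a1b by 1.22 (0.478, 0, 0.944 and 3.52 FPKM).

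Auxiliary enzymes of oxidation had 1 of 20 higher after injury in DMSO, beside 6.46% of all genes, and 1 lower, beside 8.88% (median −0.33). The lower one was gcdha, the glutaryl-CoA dehydrogenase of lysine breakdown, at 38.3, 22.6, 18.1 and 22.9 FPKM. The higher one was crot, the carnitine octanoyltransferase of peroxisomes, at 2.07, 3.35, 5.82 and 6.08 FPKM. Next in size of change went mmut, at −0.97, and decr2, at 0.93. Mmut was at 25.9, 24.8, 12.8 and 14.5 FPKM, and decr2 at 3.28, 3.82, 7.16 and 3.85 FPKM.

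Peroxisome genes had medians of opposite sign after injury, −0.19 in DMSO with 11 of 17 below 0 and 0.19 in SIS3 with 15 of 17 above 0, and none past 2-fold in either. The shares of all genes below 0 were 51.2% and 50.9%. Those at least 2-fold higher were 6.46% and 6.37%, and those lower 8.88% and 6.75%. In the difference 13 of 17 were above 0, and 1 was past 2-fold, beside 4.91% of all genes. That gene was pex5, the receptor that brings proteins into peroxisomes, at 6.47, 4.93, 3.96 and 7.44 FPKM. With SIS3 without injury 12 of the 17 were below 0 (median −0.11), beside 51.2% of all genes. With SIS3 after injury 3 were below 0 (median 0.09), beside 49.8%.

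Of 8 genes of ketone bodies and related steps, 1 was lower after injury in DMSO, beside 8.88% of all genes, and none higher, beside 6.46%. It was acat1, at 93.5, 78.6, 37.9 and 44.7 FPKM. Acat1 encodes the mitochondrial acetoacetyl-CoA thiolase. For injury in SIS3 3 of the 8 were higher, beside 6.37% of all genes, and none lower, beside 6.75%. These were oxct1b by 1.88, acat2 by 1.11 and hmgcs1 by 1.049, of which oxct1b and hmgcs1 were also the 2 higher with SIS3 after injury, beside 3.2%. The products of acat2 and hmgcs1 also serve cholesterol synthesis in the cytosol, and their levels were 6.49, 5.63, 11.8 and 13.4 FPKM and 4.18, 4.94, 4.81 and 11.3 FPKM. Oxct1b, which uses ketone bodies, was at 2.10, 2.01, 1.82 and 10.1 FPKM, above the others in injured SIS3.

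The list for the citric acid cycle also held genes of pyruvate dehydrogenase, which makes acetyl-CoA from pyruvate (pdha1a, pdhb and dlat among those compared), and the cytosolic malate dehydrogenase mdh1aa. Of its 20 genes compared, 19 were below 0 after injury in DMSO, beside 51.2% of all genes, and 3 were at least 2-fold lower, beside 8.88% (median −0.49). These were idh2 (1153, 1026, 512 and 504 FPKM), mdh2 (611, 539.9, 281 and 306 FPKM) and sdhb (148, 144, 71.1 and 88.3 FPKM). In the difference of the injury changes 18 of the 20 were above 0 and 2 below, beside 49.1% of all genes below (median 0.20). Idh3a was the 1 past 2-fold, at 1.82, beside 4.91%. Idh3a was at 57.1, 27.3, 29.6 and 51.6 FPKM, a low value in uninjured SIS3 and in injured DMSO. The difference of this list lay partly in the uninjured libraries. With SIS3 without injury 16 of the 20 were below 0 (median −0.16), beside 51.2% of all genes. With SIS3 after injury 5 were below 0 (median 0.07), beside 49.8%.

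Pyruvate dehydrogenase kinases restrain glucose oxidation when fatty acids are burnt. All 5 compared were below 0 after injury with either compound, beside 51.2% of all genes in DMSO and 50.9% in SIS3. Pdk2a was at 126, 190, 58.6 and 55.5 FPKM, and pdk2b at 69.5, 70.0, 22.6 and 29.5 FPKM, both at least 2-fold lower with DMSO and with SIS3. These were the 2 of 5 called lower, beside 8.88% of all genes in DMSO and 6.75% in SIS3. None was higher, beside 6.46% and 6.37%. Acacb makes malonyl-CoA, which inhibits Cpt1, and was at 16.5, 22.4, 7.32 and 10.6 FPKM. It was the 1 lower gene of 6 compared for fatty acid synthesis after injury in DMSO, beside 8.88% of all genes (median −0.46).

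Among regulators of these genes, 2 of 15 compared were at least 2-fold higher after injury in DMSO, beside 6.46% of all genes, and 2 lower, beside 8.88% (median −0.22). For injury in SIS3 none was higher, beside 6.37% of all genes, and 3 were lower, beside 6.75%. Below 0 were 11 of 15, beside 50.9% of all genes, with a median of −0.51. The 3 lower genes were ppargc1a, esrrga and sirt3, a mitochondrial deacetylase at 3.59, 4.51, 1.98 and 1.74 FPKM. Ppargc1a, a coactivator that drives mitochondrial genes, was at 4.44, 4.32, 1.41 and 1.53 FPKM, and esrrga, an estrogen-related receptor, at 3.54, 3.68, 1.01 and 1.31 FPKM. Both were lower in both injured libraries. Ppardb, a fatty acid-sensing nuclear receptor, was at 5.49, 10.97, 14.9 and 13.4 FPKM, and the AMP-activated kinase gene prkaa1 at 7.20, 8.98, 15.7 and 14.7 FPKM, both lowest in uninjured DMSO. The PPAR-alpha genes were under the filter, with pparaa at 1.02 and 0.971 FPKM uninjured and 0 in both injured libraries, and pparab at 1.35, 1.24, 0.204 and 0 FPKM.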

How the data were processed

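Whole-heart RNA was sequenced in 4 libraries, 1 per group. The deposited values are FPKM of transcript events (such as first exons, last exons and retained introns), computed by the authors, per the file headers. CASAVA 1.8, HISAT2 2.0.5 and HTSeq 0.6.1, with build GRCz10, appear in the submitters' processing notes without roles. Repeated entries (345, 346, 306 and 293) were used once. First-exon and last-exon FPKM were summed per gene and the larger sum was its level. The sums lay within 2% for 27, 27, 22 and 26 members. Many were identical, and several events of a gene can hold 1 value, such as 50.1 FPKM for acads in uninjured DMSO. First and last exons are thus not separate measurements of such a gene. Event FPKM can misplace reads between exons, and read depth is unknown, so no counting interval is given. Scale factors were medians of ratios over genes listed in every library and averaging 1 FPKM or more (log2 factors −0.12, −0.02, 0.11 and 0.06). Coordinates are as deposited.

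Of 18231 Ensembl IDs, 17251 had a symbol. Copies with one symbol (ACSL1, ACSL3, ACSL4, CPT1A and HADHA among the members) took their zebrafish names from shared neighbours in RefSeq assembly GRCz12tu, at least 3 of 10 on each side. Members and lists were chosen with earlier results of these data known. Values are given for core members, for members past 2-fold that reached 5 FPKM in one of the libraries compared, and for up to 4 genes a list. Genes outside this rule (the other members, cd36, slc27a2a, slc27a1b, ppargc1a, esrrga, sirt3, pparaa and pparab) and the summed straight-chain dehydrogenases were chosen after their values were seen. First exons were compared for members whose first exons summed to at least 5 FPKM in every library. Steps were tested on simulated data, in Python 3.11.15 with pandas 2.3.3 and numpy 2.4.6. The alternatives were 8 planned and 2 added. Values of 1 member are not reported here, though counts and medians include it. No promoter or protein sequence was used here.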

Additional observations from a re-analysis of the deposited data

How the results depend on the processing

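Across 10 alternative settings, 142 of the counts, medians and shares kept their value within the tolerance (1.5 times for a count, 0.1 for a median, 5 points for a share), and 1349 of the values of single members kept their side of 2-fold. Settings that change only which genes are kept cannot move the value of a single member. Of the 1349, 155 (no filter), 125 (filter at 5 FPKM) and 155 (members listed in all libraries) were thus fixed in advance. The results that changed were as follows, and the cause was not tested where none is named. Counts and medians here are over the compared members, hadhb included unless said otherwise. With the deposited values unscaled the median of the members was −0.0264 for injury in DMSO and −0.0706 for the difference of the injury changes (all genes −0.11), the latter with no member called higher (0). A filter at a mean of 5 FPKM left 26 members with a median of −0.31 for injury in DMSO. Without the filter, 1 was higher with SIS3 after injury, 2 higher in the difference, and 2 higher and 2 lower for injury in SIS3, the additions being acox3 (listed in 1 library) and, for the lower one, acsl2 (at 0 in both injured libraries). With first exons only, 1 was higher with SIS3 without injury and 2 were lower in the difference, since cpt2 joined at 1.88 and −2.05 (its first exon is not listed in uninjured DMSO). With last exons only, and likewise with members listed in all libraries, which both leave out hadhb (it adds 1 to each of these counts), 1 was higher for injury in DMSO, and 0 were lower with SIS3 after injury or in the difference. The second of these settings and the one without etfbkmt were chosen after seeing the data. Cpt2 also passed 2-fold in first exons for injury in DMSO (1.38), while acsl1b and the acadm difference fell short as given beside them. No paired analysis was possible because each group has 1 library. Leaving out a replicate was not possible for the same reason, and unknown depth limits low members most. The planned motif search was not run.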
